A study of Homo sapiens with 16 samples.

Results

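The peaks described here lie on the short arms and centromeres of the acrocentric chromosomes 13, 14, 15, 21 and 22 in HEK293T cells, a human embryonic kidney line. A peak was a member of this set when its midpoint in hg38 lay before 18.9 Mb on chromosome 13, before 18.2 Mb on chromosome 14, before 20.5 Mb on chromosome 15, before 13 Mb on chromosome 21 or before 17.4 Mb on chromosome 22, with the ribosomal DNA between 8.2 and 8.5 Mb of chromosome 21 left out. In 9 peak lists, 2262 of 40118 peaks met this rule. They are called acrocentric peaks below. The rule used position only, and no measured value.

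All 9 lists came from immunoprecipitations with 1H6, an antibody raised against G-quadruplexes (G4s). G4 DNA-IPnat and G4 DNA-IPdenat used purified genomic DNA, either kept native or heat-denatured and snap-chilled, and shared their input. G4-ChIP used chromatin of fixed and sonicated cells, and for these 3 lists the labels name no shRNA. In the AbC (Antibody Capture) G4-ChIP, lightly fixed and permeabilised cells took up the antibody before a further fixation, and no antibody was added later. This method was applied to a stable line with a non-targeting shRNA (CT) and to a stable line with an shRNA against CGGBP1 (KD), a nuclear protein that binds CGG repeats. Both lines were made with lentiviral vectors. An effect of the shRNA and a difference between the lines cannot be told apart, and the level of CGGBP1 is not measured in these files. CTnuc and KDnuc received no Control DNA, a cloned G4-forming sequence, and were sequenced on an Ion Torrent S5 against 1 pooled input. In CTut and KDut the pre-folded Control DNA was put into the lysate, and in CTtr and KDtr it was transfected into the cells. All lists other than the nuc pair came from MinION reads. The 4 replicates of a library were pooled ahead of sequencing, which leaves 1 library behind each list.

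Acrocentric chromosomes have their centromere close to one end. Their short arms carry satellite DNA, segmental duplications and the ribosomal RNA genes, and few protein-coding genes. Human centromeres are built of alpha satellite, a tandem repeat whose units are arranged head to tail and in many arrays are grouped into larger repeats. Some units carry the CENP-B box, the binding site of centromere protein B, one of the proteins that sit on centromeric DNA. The acrocentric chromosomes exchange sequence with each other, and chromosomes 13 and 21, and 14 and 22, share closely related alpha satellite. G4s form in single strands with runs of G, the canonical signature being 4 runs of at least 3 G separated by loops of 1 to 7 bases.

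The sequences shown next are those that recur among the results, all of hg38 and read from the plus strand unless said otherwise. The first set is a run of 4 alpha-satellite units from chr21:11351337-11352020, inside the acrocentric peak of the highest fold enrichment in any list (KDnuc). Fold enrichment is the mean of a peak over its background as the peak caller gives it. The AbC lists and G4 DNA-IPdenat were called with no local background, so their folds are not ratios to the input at the peak's own place. The run is intergenic, and capitals mark the CENP-B box, searched on both strands as TTCGNNNNANNCGGG.
array unit 1: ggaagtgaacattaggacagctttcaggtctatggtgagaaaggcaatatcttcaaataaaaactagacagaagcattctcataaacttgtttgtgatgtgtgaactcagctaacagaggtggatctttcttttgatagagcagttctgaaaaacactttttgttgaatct
array unit 2: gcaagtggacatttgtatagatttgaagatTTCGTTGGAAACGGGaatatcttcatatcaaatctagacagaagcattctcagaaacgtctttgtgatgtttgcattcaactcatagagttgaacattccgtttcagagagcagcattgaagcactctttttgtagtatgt
array unit 3: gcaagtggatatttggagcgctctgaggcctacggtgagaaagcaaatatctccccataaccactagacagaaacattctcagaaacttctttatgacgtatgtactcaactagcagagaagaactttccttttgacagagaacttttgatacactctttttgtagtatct
array unit 4: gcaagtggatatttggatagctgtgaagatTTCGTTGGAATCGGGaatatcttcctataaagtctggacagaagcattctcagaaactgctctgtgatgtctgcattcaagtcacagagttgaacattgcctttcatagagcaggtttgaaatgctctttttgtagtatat
Units 2 and 4 held the box and were 86.0% identical, units 1 and 3 lacked it and were 76.0% identical, and the other pairs were 71.9% to 73.7% identical. The whole run of 4 units occurs base for base at chr13:16486777-16487460, chr14:16609052-16609735 and chr22:13489847-13490530.

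The second set shows 4 of the 6 regions with a peak in all 9 lists, each by the stretch richest in GGG and CCC runs or in the repeat named, with those marks in capitals. A region joins peaks that overlap in a chain, so a printed stretch need not lie under a peak of every list. The first lies at an annotated start of FAM230C, a long non-coding RNA gene of chromosome 13, and overlaps an exon (chr13:18211841-18212040). It lies outside the CTtr peak of its region. The next 2 are intergenic. One is from a GC-rich region of chromosome 22 (chr22:11816631-11816830), labelled a repeat by its best period, whose match is given below. The other is from a pentamer repeat of chromosome 21 (chr21:7926512-7926661), where capitals mark ATTCC.
FAM230C start: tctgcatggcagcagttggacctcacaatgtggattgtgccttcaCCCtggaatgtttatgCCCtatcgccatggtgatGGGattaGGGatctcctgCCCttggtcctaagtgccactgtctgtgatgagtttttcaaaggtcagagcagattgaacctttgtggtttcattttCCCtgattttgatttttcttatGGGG
chromosome 22 GC-rich repeat: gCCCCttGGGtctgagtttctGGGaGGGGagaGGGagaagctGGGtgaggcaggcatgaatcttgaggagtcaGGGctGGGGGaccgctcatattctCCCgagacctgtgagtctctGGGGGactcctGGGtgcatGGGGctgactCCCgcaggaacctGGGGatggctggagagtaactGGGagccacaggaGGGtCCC
chromosome 21 pentamer repeat: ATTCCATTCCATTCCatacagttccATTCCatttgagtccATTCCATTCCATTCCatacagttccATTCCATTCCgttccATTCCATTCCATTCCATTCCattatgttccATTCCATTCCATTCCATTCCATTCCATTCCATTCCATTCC
A 68-base tandem repeat of chromosome 22 (chr22:12692057-12692260, intergenic) held the highest acrocentric peak of both DNA-IP lists. The 3 units printed below are the consecutive ones that match best within the G4 DNA-IPnat peak, where 49.4% of all bases matched the base 68 further on. They differ from each other, neighbours being 85.3% identical, and the first and the last 76.5%. These units lie outside the CTut, KDut and KDtr peaks of their region, and the CTtr peak starts only in the last of them.
chromosome 22 repeat unit 1: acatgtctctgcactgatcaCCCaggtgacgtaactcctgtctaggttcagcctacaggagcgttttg
chromosome 22 repeat unit 2: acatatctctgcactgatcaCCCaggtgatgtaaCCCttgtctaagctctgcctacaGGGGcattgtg
chromosome 22 repeat unit 3: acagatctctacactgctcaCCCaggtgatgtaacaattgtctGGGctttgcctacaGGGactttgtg
The last is the promoter of LINC01667 as RefSeq gives it in GRCh38.p14 (chr21:9821012-9821311, minus strand, inside an intron of the longer GENCODE model), the gene with the second highest number of lists at its start.
LINC01667 promoter: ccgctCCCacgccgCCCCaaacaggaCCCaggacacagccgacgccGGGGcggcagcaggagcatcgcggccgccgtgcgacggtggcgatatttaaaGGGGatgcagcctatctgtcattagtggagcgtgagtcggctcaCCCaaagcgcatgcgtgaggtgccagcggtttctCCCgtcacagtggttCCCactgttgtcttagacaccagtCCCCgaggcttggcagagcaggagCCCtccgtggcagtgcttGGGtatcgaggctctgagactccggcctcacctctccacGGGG

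Acrocentric peaks took a larger share of the list than these regions take of the genome's known bases, beyond counting error in 8 of 9 lists. The regions hold 20.5 Mb of known sequence, which is 0.704% of the 2911 Mb of known bases of the chromosomes examined. The share of peaks was 10.6% for G4 DNA-IPnat (24 of 226), with an exact Clopper-Pearson 95% interval of 6.92% to 15.4%. It was 1.81% for G4 DNA-IPdenat (284 of 15709) and 1.17% for G4-ChIP (17 of 1455), whose interval of 0.682% to 1.86% includes the share of known bases. Among the AbC lists it was 12.8% in CTnuc (484 of 3796), 7.60% in KDnuc (589 of 7753), 9.58% in CTut (335 of 3496), 6.56% in KDut (192 of 2927), 7.52% in CTtr (178 of 2367) and 6.66% in KDtr (159 of 2389). Intervals cover counting error only, since there is 1 library per list. Among peaks with a -log10 q, the caller's adjusted significance, of at least 4 the share was 3.89% for G4 DNA-IPdenat, 2.89% for G4-ChIP and 12.3% in KDnuc, and with the ribosomal DNA counted G4-ChIP reached 1.99% and G4 DNA-IPnat 15.9%. The nuc lists hold part of the peaks called, with names that run to 10757 in CTnuc and 22266 in KDnuc.

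**Figure D1:**
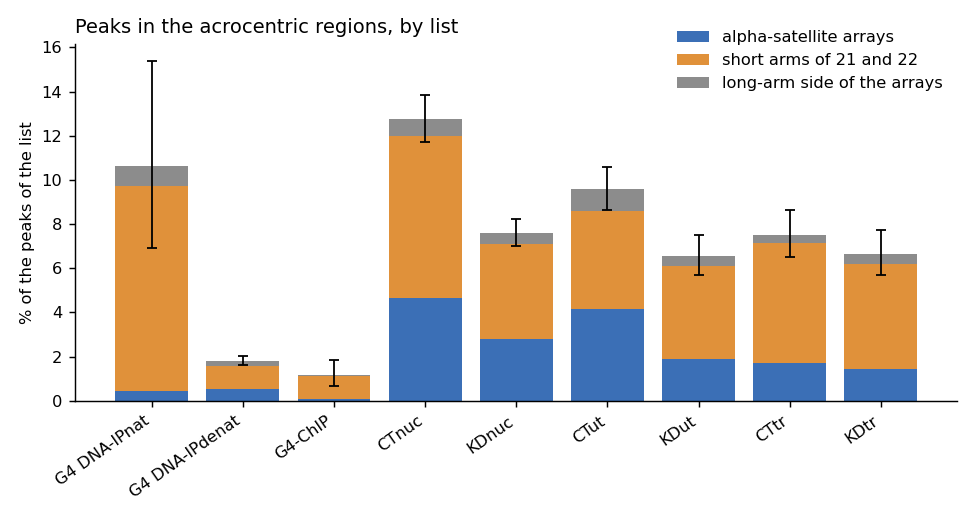
Share of the peaks of each list that lay in the acrocentric regions, in percent, stacked by array, short arm and long-arm side, with exact 95% intervals of the sum as error bars. CTnuc is highest at 12.8% and G4-ChIP lowest at 1.17%, and the array parts of G4 DNA-IPnat and G4-ChIP are 1 peak each.

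Of the 2262 acrocentric peaks, 756 lay in the alpha-satellite arrays, 1329 on the short arms of chromosomes 21 and 22, and 177 between the array and the limit on the long-arm side. The array of a chromosome is here its longest stretch between assembly gaps of at least 20 kb, so not every base in it is alpha satellite. Chromosomes 13, 14 and 15 have no known base before their array in hg38, so all short-arm peaks came from the other two. The 5 chromosomes held 190, 174, 63, 872 and 963 peaks in the order of their numbers.

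The arrays of chromosomes 13, 14, 21 and 22, which are modelled in hg38, hold the same sequence. Every window of 1 kb in the chromosome 13 array had an exact copy on chromosomes 14, 21 and 22, 95.3% of those of chromosome 14 had one on chromosome 13, and 98.4% of those of chromosome 22. None was shared with chromosome 15. The study's methods state that only uniquely aligned reads were kept, and how uniqueness was defined is not given in the sources used here. Of the 709 peaks in these 4 arrays, 696 lay in sequence with an exact copy in the other 3. The same list had a peak at all 3 copies for 404 of them (58.0%) and at 1 or more for 609 (87.5%). By list, peaks at all 3 copies ranged from 48.6% in KDnuc to 77.0% in CTut. A peak on one of these chromosomes is therefore not an observation independent of its copies. With array peaks counted on chromosome 21 alone, CTnuc had an acrocentric share of 9.61% and KDnuc one of 5.63%.

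Placed in a single frame, these 696 peaks fell on 117 loci that together covered 8.14% of the array. All 4 chromosomes contributed to 52 of the loci, which held 589 peaks. Most loci were found in few lists: 49 in 1 list, 13 in 5 or more, and 5 in 7 lists, the 6 AbC lists and G4 DNA-IPdenat. G4 DNA-IPnat and G4-ChIP had 0 peaks in these 4 arrays. Each had 1 in the array block of chromosome 15, at chr15:17078561-17083566, where 20.5% of the bases were ATTCC or its complement, with fold enrichments of 5.81 and 5.48. That place was covered in 7 lists, with folds of 8.496 for G4 DNA-IPdenat, 9.60 in CTut, 9.93 in KDut, 6.65 in CTtr and 11.7 in KDtr, and had no peak in CTnuc or KDnuc. On chromosome 14 the region in most lists was chr14:16240280-16242226, intergenic and in 7 lists, with folds of 4.65 for G4 DNA-IPdenat, 8.96 in CTnuc, 6.85 in KDnuc, 8.18 in CTut, 5.23 in KDut, 5.69 in CTtr and 5.07 in KDtr. It is the chromosome 14 copy of one of the 5 loci in 7 lists.

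The highest locus found in 7 lists lay 775879 to 777899 bases from the start of the array and held 5 CENP-B boxes. In G4 DNA-IPdenat its fold enrichments on chromosomes 13, 14, 21 and 22 were 10.9, 10.9, 9.62 and 9.26. In CTut they were 10.9, 11.4, 12.9 and 12.2, and in KDut 6.34, 7.88, 6.80 and 7.71. CTnuc had peaks of 16.0, 14.1 and 13.9 on chromosomes 14, 21 and 22 and none on 13, and KDnuc had 10.5, 9.84 and 14.1 on 13, 14 and 21 and none on 22. In CTtr the folds ran from 5.04 to 6.35 and in KDtr from 5.65 to 7.35. CTnuc was the highest list and CTtr the lowest, and no copy in CTtr or KDtr reached the lowest of CTnuc, CTut or G4 DNA-IPdenat. The KDnuc peak printed above was of another kind: fold 27.8 on chromosome 21 and 22.7 on chromosome 13, with no peak over the identical copies on 14 and 22 and none in any other list.

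**Figure D2:**
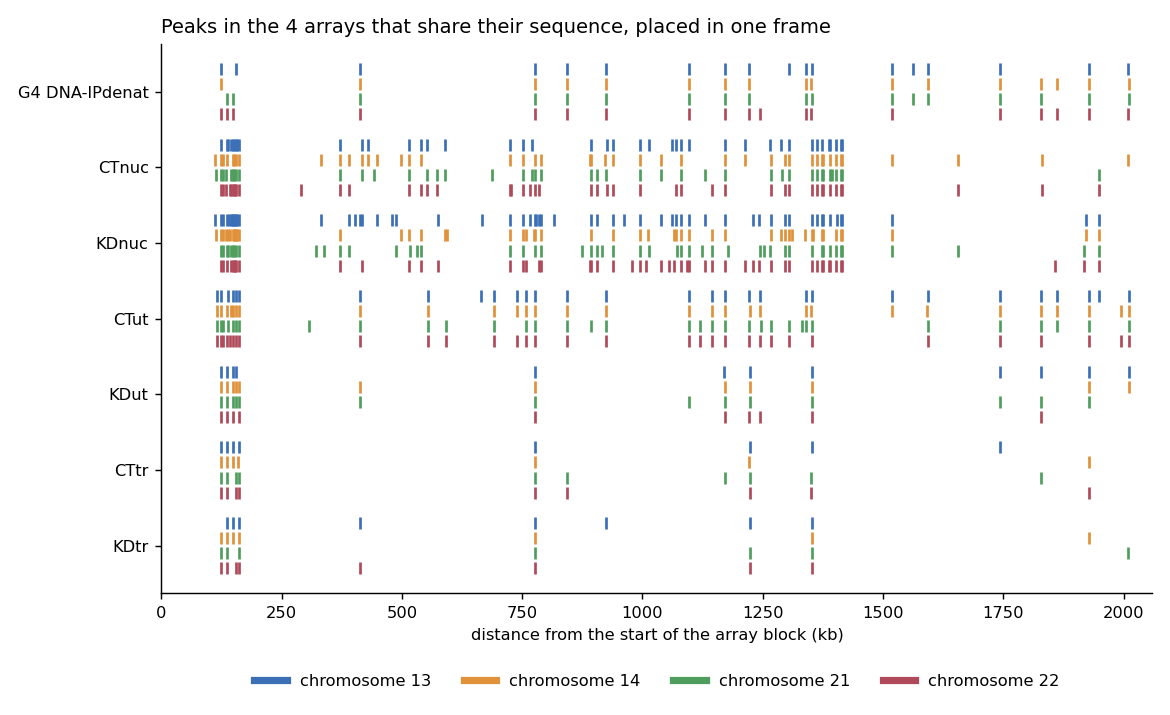
Midpoints of the peaks in the 4 arrays that share their sequence, as ticks at their distance in kb from the start of the array block, 1 row per chromosome (colours) in each of the 7 lists that had any. Many ticks line up across chromosomes within a list and they crowd between 111.2 and 162.7 kb, while G4 DNA-IPnat and G4-ChIP had none. The 13 peaks without an exact copy in the other 3 arrays are left out.

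The frame had a part poor in CENP-B boxes, from its start to 282.3 kb with 11 boxes, and a box-bearing part of 1769 kb with 4233. The first part held 163 peaks, all between 111.2 and 162.7 kb, at a median fold of 5.34. The box-bearing part held 533 at a median fold of 5.91. Medians were higher in the box-bearing part in 6 of 7 lists, the exception being CTut with 5.47 before it and 5.33 in it. The share of peaks in the part poor in boxes ran from 8 of 72 for G4 DNA-IPdenat to 16 of 34 in CTtr.

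Array peaks had higher fold enrichments than the other acrocentric peaks of their list. The medians were 6.67 and 5.18 in CTnuc, 5.80 and 4.87 in KDnuc, 5.28 and 3.76 in CTut, 4.89 and 3.91 in KDut, 4.46 and 3.90 in CTtr, 5.05 and 4.32 in KDtr, and 5.84 and 5.46 for G4 DNA-IPdenat. The mean difference was 0.28 ± 0.13 on the log2 scale (SD, n = 7 lists with at least 5 peaks of both kinds), higher in 7 of 7 lists, with an exact two-sided sign-flip permutation p of 0.0156, the smallest that 7 lists can give. This comparison was chosen after the data were seen. Among peaks with a -log10 q of at least 4 the difference was 0.15, with an exact permutation p of 0.0781.

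The sequence of array and short-arm peaks differed. The canonical G4 signature was found in 1 of 756 array peaks and in 228 of 1329 short-arm peaks (17.2%), against 8.07% of the 37856 peaks elsewhere. In windows of 2 kb it was present in 0.243% of the 4 arrays, in 17.5% of the short arms and in 16.9% of the genome. The CENP-B box was found in 72.4% of array peaks, chromosome 15 included, and in 0 of 1329 short-arm peaks. It was present in 86.0% of the windows of the 4 arrays and in 50.4% of those of the chromosome 15 array. For the short arms and the genome the window shares were 0.0351% and 2.02%. Array peaks, at a median of 964 bases, were shorter than the windows. Alpha satellite, here a peak in which over 50% of the bases matched the base 1 alpha-satellite unit further on, made up 617 of 2262 acrocentric peaks (27.3%), 65.9% of array peaks, 7.15% of short-arm peaks and 11.7% of peaks elsewhere. By list it ranged from 0% for G4 DNA-IPnat and G4-ChIP to 36.1% in CTut. With array peaks counted on chromosome 21 alone it was 15.7%, and with a limit of 70% instead of 50% it was 6.41%. Over 50% of the 100-base words of a peak had a copy elsewhere in the genome for 97.6% of array peaks, 23.2% of short-arm peaks and 36.2% of peaks elsewhere.

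Short-arm peaks held the signature more often than the peaks outside the acrocentric regions in each list. G4 DNA-IPnat had shares of 28.6% and 12.9%, G4 DNA-IPdenat 17.8% and 8.94%, G4-ChIP 26.7% and 8.55%, CTnuc 12.9% and 5.04%, and KDnuc 12.5% and 4.76%. They were 25.2% and 8.42% in CTut, 19.5% and 11.6% in KDut, 20.2% and 10.9% in CTtr, and 20.2% and 8.92% in KDtr. The mean difference was 11.5 percentage points ± 4.2 (SD, n = 9 lists), higher in 9 of 9, with an exact sign-flip permutation p of 0.00391, the smallest 9 lists can give. Short-arm peaks were also longer, with a median of 1919 bases against 1381 elsewhere. Per kb of peak the signature was 0.0188 higher on average and in 7 of 9 lists, with an exact permutation p of 0.0938. Both comparisons were chosen after the data were seen. Over all lists 17.2% of short-arm peaks held the signature, near the 17.5% of 2-kb windows of the short arms and the 16.9% of those of the genome. The share of peaks elsewhere, 8.07%, lay below both window shares.

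The covered share, the percent of a chromosome's known acrocentric bases that lay under peaks, was highest on chromosomes 21 and 22. It was 0.932 ± 0.925% on chromosome 13, 1.21 ± 1.13% on chromosome 14, 0.356 ± 0.313% on chromosome 15, 5.87 ± 3.52% on chromosome 21 and 4.58 ± 3.70% on chromosome 22 (mean ± SD over 9 lists). The known bases of chromosomes 13, 14 and 15 hold no short arm, and those of chromosome 14 are its array alone. A difference between chromosomes and one between the kinds of sequence that hg38 holds for them can therefore not be told apart. Chromosomes 21 and 22 each exceeded 13, 14 and 15 in 9 of 9 lists, with an exact sign-flip permutation p adjusted over the 10 pairs of 0.00651 for each of the 6 differences. Chromosome 13 differed from 14 by -0.275 points and was lower in 7 of 9 lists (exact permutation, adjusted p = 0.0217) and 14 was above 15 by 0.851 points in 7 of 9 (adjusted p = 0.0195). For chromosome 13 against 15 the difference was 0.576 points and the adjusted p 0.0898 by the same exact test, and without G4 DNA-IPdenat they were 0.691 points and 0.0391. In peaks per Mb chromosome 13 exceeded 15 by 5.71 (exact permutation, adjusted p = 0.00558). Chromosome 21 was above 22 by 1.29 points in 8 of 9 lists (exact permutation, adjusted p = 0.0195), while in peaks per Mb it differed from 22 by -2.39 (adjusted p = 0.129).

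Within the arrays alone no pair of chromosomes passed 0.05. The array share covered was 1.13% on chromosome 13, 1.21% on 14, 1.20% on 21 and 1.22% on 22, and 0.266% on chromosome 15, which was lower than each of the others in 7 of 9 lists. Exact permutation p-values adjusted over the 10 pairs were 0.651 to 0.844 among the 4 arrays that share their sequence, and 0.0521 to 0.0586 for chromosome 15 against each of them.

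The short-arm peaks were uneven along chromosomes 21 and 22. The densest 0.5 Mb was chr21 from 9 to 9.5 Mb, with 213 peaks on 327 kb of known bases, of which 28.2% held the canonical signature. Peaks covered 4.23% of these bases in G4 DNA-IPnat, 22.6% for G4 DNA-IPdenat and 5.09% for G4-ChIP. They covered 54.0% in CTnuc, 62.5% in KDnuc, 80.9% in CTut, 58.4% in KDut, 62.0% in CTtr and 59.95% in KDtr, so the 6 AbC lists lay above the 3 others without overlap. The longest single peak here spanned 99967 bases, in CTut. The segments of chromosome 22 from 12 to 12.5 Mb and from 11.5 to 12 Mb followed with 202 and 149 peaks. In contrast, 5.5 to 6 Mb and 6.5 to 7 Mb of chromosome 21 had 5 and 6.

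**Figure D3:**
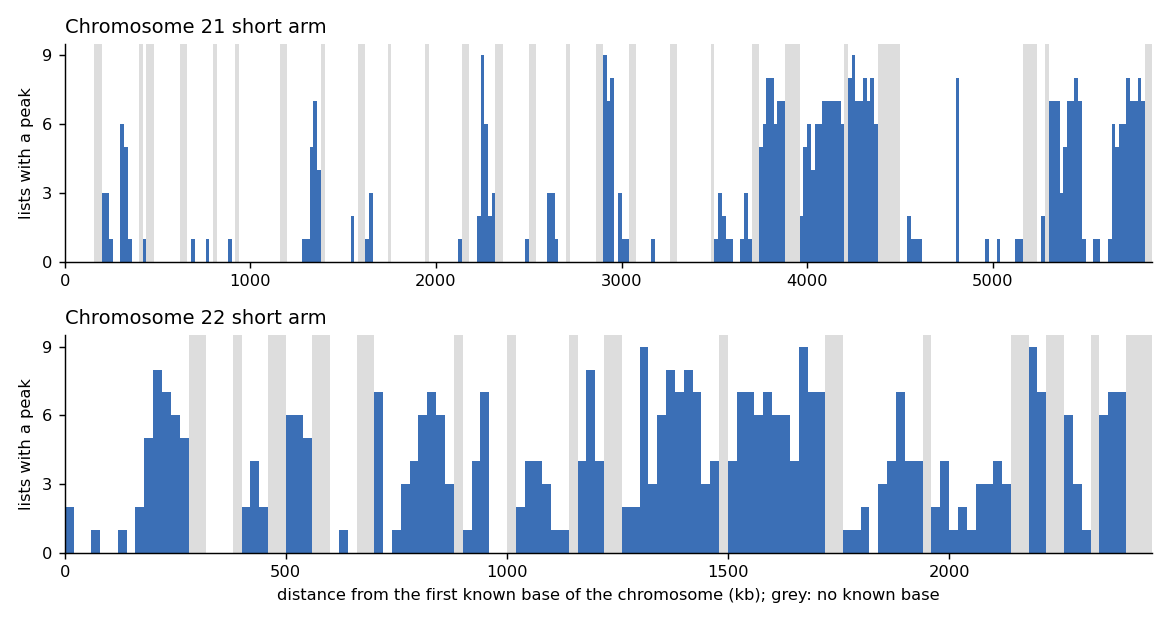
Number of the 9 lists with a peak in each window of 20 kb along the short arms of chromosomes 21 and 22, against the distance in kb from the first known base. Grey marks windows with no known base, and the peaks of the ribosomal DNA are left out. Windows with all 9 lists number 3 on each chromosome, and those with 6 or more lists 46 on chromosome 21 and 33 on chromosome 22.

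The peaks merged over all lists into 720 acrocentric regions. Of these, 361 were covered by 1 list, 155 by 2, 60 by 3, 38 by 4, 31 by 5, 28 by 6, 31 by 7, 10 by 8 and 6 by 9. Regions in 7 or more lists numbered 47 (6.53%), of which 10 lay in arrays, 36 on short arms and 1 on the long-arm side. Over the whole genome 541 of 23547 merged regions (2.30%) reached 7 lists. Of the 77 regions of the genome with all 9 lists, 6 were acrocentric. Folds depend on the background and the calling settings of each list, so the values of different lists are set side by side below without a test.

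The region at FAM230C (chr13:18211705-18213814) was the only one of the 6 outside the short arms, and held no canonical signature at a GC content of 35.5%. Fold enrichments were 7.13 for G4 DNA-IPnat, 16.5 for G4 DNA-IPdenat, 11.9 for G4-ChIP, 20.7 in CTnuc, 16.2 in KDnuc, 6.24 in CTut, 4.46 in KDut, 4.85 in CTtr and 9.86 in KDtr. CTnuc was the highest and KDut the lowest. It was also the highest acrocentric peak of CTnuc. The 200 bases printed above carry 8 GGG or CCC triplets, overlapping ones included, on 46.5% GC.

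The 2 GC-rich regions of chromosome 22 were the richest in G runs. The region chr22:11813173-11818172 had a GC content of 52.6%, 57.0 GGG and CCC triplets per kb and 3 canonical signatures. Its best period was 147 bases, at which 43.0% of the bases matched. Its folds were 6.15 for G4 DNA-IPnat, 6.72 for G4 DNA-IPdenat, 4.85 for G4-ChIP, 13.9 in CTnuc, 14.1 in KDnuc, 9.56 in CTut, 12.5 in KDut, 8.66 in CTtr and 12.0 in KDtr, so each AbC list lay above each of the other 3. The region chr22:12173493-12180705 had 51.9 triplets per kb and 3 signatures. It had the same best period at a match of 36.5%, near the 36.0% of chr21:9245969-9262044 at a best period of 5 bases. Its folds were 6.30 for G4 DNA-IPnat, 11.4 for G4 DNA-IPdenat, 6.85 for G4-ChIP, 19.3 in CTnuc, 20.9 in KDnuc, 8.17 in CTut, 11.0 in KDut, 9.51 in CTtr and 10.4 in KDtr, where only the nuc lists stood above all of the 3 others.

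The pentamer region of chromosome 21 (chr21:7915841-7965159) was the longest, at 49319 bases, and 29.5% of it was ATTCC or its complement. G4-ChIP had its highest acrocentric peak here, at fold 14.8 over 2257 bases, against highest folds of 6.78 for G4 DNA-IPnat, 9.03 for G4 DNA-IPdenat, 6.35 in CTnuc, 5.98 in KDnuc, 5.60 in CTut, 7.63 in KDut, 6.62 in CTtr and 11.2 in KDtr. The highest peaks of G4 DNA-IPnat, G4 DNA-IPdenat, KDnuc and CTut overlapped the G4-ChIP peak at chr21:7925100-7927356. Those of CTnuc, KDut, CTtr and KDtr lay elsewhere in the region, from chr21:7952623 onward. The covered length varied more than the fold, from 2257 bases in G4-ChIP and 3783 in KDnuc to 45336 for G4 DNA-IPdenat and 48988 in CTut. The region held 6.51 triplets per kb, the lowest of the 6. At chr21:9245969-9262044 the highest folds were 5.32 for G4 DNA-IPnat, 13.3 for G4 DNA-IPdenat and 5.06 for G4-ChIP, and 8.75 (KDnuc) to 12.9 (CTut) in the AbC lists.

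The region at the 68-base repeat (chr22:12691764-12710458) had folds of 8.14 for G4 DNA-IPnat, 18.4 for G4 DNA-IPdenat, 6.79 for G4-ChIP, 10.7 in CTnuc, 23.4 in KDnuc, 4.92 in CTut, 9.44 in KDut, 5.56 in CTtr and 6.41 in KDtr. The first 2 were the highest acrocentric peaks of their lists, each at rank 11 of all peaks of the list. KD was above CT in 3 of 3 pairs at this region and at both GC-rich regions of chromosome 22, while at the other 3 regions in all 9 lists the pairs went both ways, and none of this was tested. The highest acrocentric peaks of the other lists lay at rank 7 (G4-ChIP), 30 (CTnuc), 15 (KDnuc), 19 (CTut), 24 (KDut), 28 (CTtr) and 38 (KDtr). Those of KDut and KDtr, 12.5 and 12.0, were both at the GC-rich region chr22:11813173-11818172. That of CTut was the array locus described above, on chromosome 21, at 12.9. That of CTtr was chr21:8806652-8808138, in an exon of the lncRNA gene ENSG00000286033, at 10.1.

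A minority of the annotated genes of the regions had an acrocentric peak at a start. Of 268 genes of the regions in GENCODE 44, 40 had an acrocentric peak within 1 kb of an annotated start of a transcript. They were 13 of 71 lncRNA genes, 0 of 11 protein-coding genes, and for the rest pseudogenes and small RNA genes. The share of genes with a peak at a start was not counted over the genome. With so few protein-coding genes, the 0 of 11 is not read as a result. FAM230C had one in 9 lists and LINC01667 in 8. At LINC01667 a wider search also took in peaks further than 1 kb from a start. The highest folds in it were 6.77 for G4 DNA-IPnat, 5.80 for G4 DNA-IPdenat, 9.39 in CTnuc and 10.2 in KDnuc. They were 5.81 in CTut, 7.68 in KDut, 5.63 in CTtr and 7.62 in KDtr, with G4-ChIP having none. Within 1 kb of a start the highest fold of any list was 9.97, in KDnuc. A peak of each of the 6 AbC lists lay over the promoter printed above, and none of the DNA-IP lists had one there. That promoter holds 17 GGG or CCC triplets, overlapping ones included, at 64.7% GC.

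The 5 genes with 6 lists were TEKT4P2, the small nuclear RNA gene U2, and the pseudogenes or lncRNA genes ENSG00000278931, ENSG00000278932 and ENSG00000286406. In each of these the 6 lists were the AbC lists, at folds between 3.97 and 6.61. Genes with 5 lists were EIF3FP1, ENSG00000279208, SNX18P12, VN1R7P and a Y_RNA gene. Genes with 4 were BAGE2, CDRT15P9, ENSG00000278106, MTCO1P1 and NF1P6. DUXAP8, ENSG00000279501 and ENSG00000279973 were among the 4 genes with 3 lists. BAGE2, a pseudogene of the BAGE antigen family, was the only one of the 17 genes with 4 or more lists that had a peak in G4-ChIP besides FAM230C. Many of these genes belong to families with near-identical copies on other chromosomes, so a peak may be placed on one copy of several.

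Acrocentric peaks overlapped a peak of another list more often than all peaks of their list did in 6 of 9 lists. Overlap by at least 1 base with a peak of any other list was found for 24 of 24 for G4 DNA-IPnat (100% of all its peaks), 66.5% for G4 DNA-IPdenat (13.3% of all its peaks) and 17 of 17 for G4-ChIP (59.8%). In the AbC lists the shares were 86.6% in CTnuc (87.4% of all its peaks), 77.8% in KDnuc (56.9%), 80.3% in CTut (82.6%), 99.0% in KDut (73.5%), 178 of 178 in CTtr (92.7%) and 98.7% in KDtr (87.9%). The 2 shares were equal in G4 DNA-IPnat and the acrocentric one was lower in CTnuc and CTut. Over all lists it was 84.0% against 50.5%, and no test was made of this difference. The 2 pooled shares weigh the lists differently. G4 DNA-IPdenat, the lowest list on both, gave 15709 of all 40118 peaks but 284 of the 2262 acrocentric ones.

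KD was compared with CT to ask whether depletion of CGGBP1 went with a different acrocentric share. The share fell from 12.8% to 7.60% in the nuc pair, from 9.58% to 6.56% in the ut pair and from 7.52% to 6.66% in the tr pair. It was lower in KD in 3 of 3 pairs, with a mean difference of -3.01 ± 2.14 percentage points (SD, n = 3 pairs). The exact two-sided sign-flip permutation p was 0.25, the smallest that 3 pairs can give, so no difference could pass 0.05. Without the pairing as a replicate block, an exact permutation of the labels gave p = 0.2, where the smallest possible is 0.1. With the other acrocentric peaks left out of the list's total, array peaks alone differed by -1.60 points and, with array peaks left out, those outside the arrays by -1.70 points, also lower in 3 of 3 pairs, with no-block permutation p-values of 0.3 and 0.1.

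Other measures had no common direction. Peaks covered 816 kb of the regions in CTnuc and 999 kb in KDnuc, 1637 kb in CTut and 667 kb in KDut, and 615 kb in CTtr and 629 kb in KDtr. The mean difference was -258 ± 623 kb, with an exact permutation p of 1 (0.7 without the replicate block). Without the ut pair it was 98.3 kb. The median fold of acrocentric peaks was 5.55 in CTnuc and 5.19 in KDnuc, 4.44 in CTut and 4.10 in KDut, and 4.00 in CTtr and 4.40 in KDtr. The mean difference was -0.10 ± 0.44 in fold units, with an exact permutation p of 1 (0.9 without the replicate block). Total peak numbers moved as well, from 3796 to 7753 in the nuc pair, and their part in the shares was not tested.

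**Figure D4:**
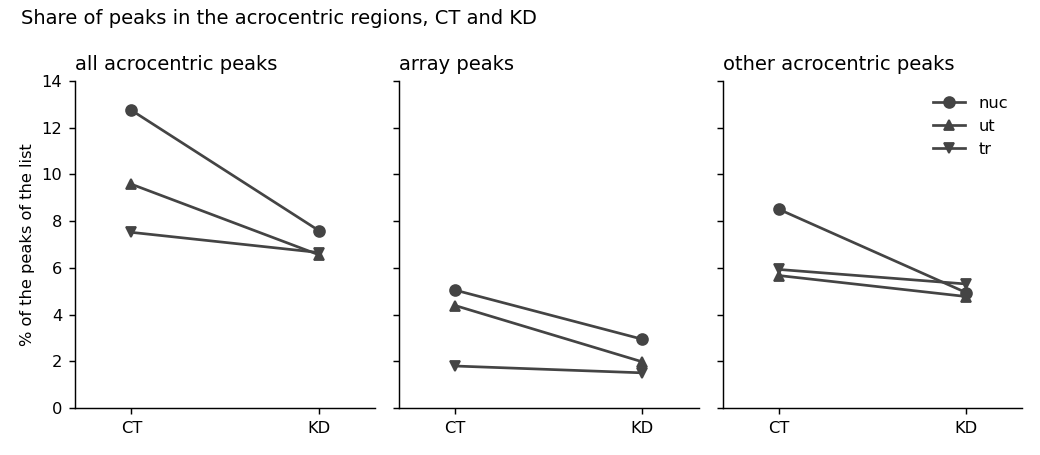
Share of the peaks of a list in the acrocentric regions, in percent, in CT and KD, with a line for each of the pairs nuc, ut and tr, for all acrocentric peaks, array peaks and the others, each of the last 2 with the other kind left out of the total. Every line falls from CT to KD. Over all acrocentric peaks the nuc line falls most, from 12.8% to 7.60%, and over array peaks the ut line, from 4.39% to 1.97%.

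At the level of regions, 641 of the 9606 regions merged from the 6 AbC lists were acrocentric. None was covered by all 3 KD lists and no CT list, against 3 in the genome (0.0312%), and none by all 3 CT lists and no KD list, against 5 (0.0521%). All 6 lists covered 62 (9.67%), against 5.76% in the genome. Within pairs, 76.0% of the acrocentric peaks of CTnuc overlapped a KDnuc peak (72.0% of all its peaks), and 61.3% of those of KDnuc a CTnuc peak (33.7%). In the ut pair the shares were 39.7% of CTut (54.9%) and 97.9% of KDut (62.6%), and in the tr pair 74.2% of CTtr (68.9%) and 77.4% of KDtr (73.1%). CTut was the only one of the 6 with a lower share for acrocentric peaks than for all its peaks.

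Acrocentric peaks had somewhat higher fold enrichments than the rest of their list, with a difference near 0 among stronger peaks. G4 DNA-IPnat had median folds of 5.80 among acrocentric and 5.88 among other peaks, G4 DNA-IPdenat of 5.60 and 4.66, G4-ChIP of 5.06 and 4.61, and CTnuc of 5.55 and 5.18. They were 5.19 and 4.66 in KDnuc, 4.44 and 3.97 in CTut, 4.10 and 3.70 in KDut, 4.00 and 3.73 in CTtr, and 4.40 and 4.197 in KDtr. The mean difference was 0.12 ± 0.08 on the log2 scale (SD, n = 9 lists), higher in 8 of 9, with an exact sign-flip permutation p of 0.0195 adjusted over 5 measures. Among peaks with a -log10 q of at least 4 it was 0.01 (exact permutation, adjusted p = 0.957), and against alpha satellite elsewhere -0.08. The -log10 q itself was higher by 0.923 in 8 of 9 lists, with the same exact permutation p. The 9 lists share a cell line and some inputs, so they are not fully independent.

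Length, GC content and G runs did not pass 0.05 after adjustment over all 9 lists, and length and triplets passed under some alternatives. Acrocentric peaks were longer by 0.19 on the log2 scale in 8 of 9 lists, richer in GC by 1.21 percentage points in 7 of 9 and richer in GGG and CCC triplets by 1.44 per kb in 8 of 9, each with an exact permutation p of 0.0547 after adjustment. With the 4 identical arrays counted once, length and triplets differed by 0.38 log2 and 3.28 per kb, and among peaks with a -log10 q of at least 4 by 0.39 log2 and 6.55 per kb, all 4 with an exact permutation p of 0.0195 after adjustment. G4 DNA-IPdenat went the other way in length, with 1440 bases against 1716, and in triplets, with 15.5 per kb against 17.7. Without that list, length and triplets differed by 0.24 log2 and 1.90 per kb (exact permutation, adjusted p = 0.0195 for both), and without KDnuc GC content by 1.41 points (adjusted p = 0.0391). Against the other peaks of the same 5 chromosomes, length and triplets were lower, by -0.22 log2 and -5.03 per kb.

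The peaks nearest to the long-arm limits lay 0.412 to 643 kb from them. On chromosome 13 the nearest peak inside the long-arm limit lay 382 kb from it (fold 6.07) and the nearest outside 208 kb (fold 6.27), both of G4 DNA-IPdenat. On chromosome 14 they lay 67.3 and 63.7 kb away at folds of 3.73 and 4.27, on chromosome 15 85.6 and 643 kb away at 4.97 and 7.63, and on chromosome 22 104 and 333 kb away at 5.34 and 4.45. On chromosome 21 the nearest inside the limit, 0.412 kb away, had a fold of 5.28 and the nearest outside, 135 kb away, 4.34. At the ribosomal DNA the nearest peaks on its acrocentric sides had folds of 8.83 and 3.39, and the nearest within it 14.1 and 18.3.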

How the data were processed

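Broad peaks of 9 immunoprecipitation libraries of HEK293T cells were analysed, 1 list per library, each library being pooled by the authors from 4 replicates before sequencing. The authors aligned reads to hg38 without chromosome Y, mitochondrial and unplaced sequences. Their methods state that reads without a unique alignment were dropped, and the submitters' processing notes name minimap2 and, for the peaks over input, MACS2, without versions. AbC G4-ChIP and G4 DNA-IPdenat were called with a bandwidth of 3000, no local background and a broad cutoff of 0.01, the other 2 with a bandwidth of 300. Each peak's fold enrichment is as deposited by the authors, as are its -log10 p and -log10 q values. With no local background, the fold of an AbC G4-ChIP or G4 DNA-IPdenat peak is not a ratio to the input at its own place. The deposited score is 10 times the -log10 q as a whole number. Read depth is not in the peak lists. The study's supplement gives read totals for some of the libraries, which were not used here, so intervals given cover the counting of peaks only. CTnuc and KDnuc are numbered past their 3796 and 7753 peaks, so part of the called peaks is not analysed here, and neither are the input libraries.

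Peaks were assigned by midpoint, and sequence features were counted in the hg38 reference on both strands. Copies were found as exact words of 100 and 1000 bases. Array blocks were the longest stretch of each region between assembly gaps of at least 20 kb. The match to the base 1 alpha-satellite unit further on was measured afterwards and did not set them. Lists were compared by exact two-sided sign-flip permutation tests over lists or pairs (threshold 0.05, Benjamini-Hochberg adjusted), and functions were tested on simulated data. The labels nuc, ut and tr pair CT with KD by the handling of the Control DNA. The regions and comparisons were chosen with earlier results of these data known. Regions named are the highest acrocentric peak of each list, the region in most lists on each chromosome, regions in all KD and no CT lists or the reverse, peaks next to each limit, and up to 20 genes with peaks at a start in the most lists. The other regions in all 9 lists, the locus in 7 lists and the segments of 0.5 Mb were named after their values were seen. Alternatives were a minimum of 4 on -log10 q, means, other sets of rest, other overlaps, no replicate block and leaving out each list. Of 39 gene symbols, 4 matched the RefSeq promoter table. Annotation was GENCODE 44, and the tools were numba 0.67.0, pysam 0.24.0, SciPy 1.17.1, pandas 2.3.3 and NumPy 2.4.6 under Python 3.11.15.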

Additional observations from a re-analysis of the deposited data

How the results depend on the processing

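Of the alternatives run, 224 kept the direction of the result and its side of the threshold, or moved a value by less than its counting interval. Another 27 moved a value beyond that interval and 12 reversed the direction. With the direction kept, 13 passed the threshold where the main result did not, and 10 missed it where the main result passed. The cause of these changes was not tested. The alternatives that count the 4 arrays once, take the array blocks alone or test array against other peaks were chosen after seeing the data.

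Among peaks with a -log10 q of at least 4, acrocentric shares were 3.89% for G4 DNA-IPdenat, 2.89% for G4-ChIP, 15.4% in CTnuc, 12.3% in KDnuc, 11.5% in CTut, 9.83% in KDut, 8.85% in CTtr and 8.51% in KDtr. The differences from the rest of the list were then 0.00821 log2 in fold enrichment and -0.0200 in -log10 q, both with an adjusted exact permutation p of 0.957. Those in length and triplets became 0.39 log2 and 6.55 per kb, both at 0.0195. The overlap between lists was 81.7%, alpha satellite 34.3% of acrocentric peaks, and the array difference 0.15 log2.

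With the 4 arrays counted once, shares were 1.45% for G4 DNA-IPdenat, 9.61% in CTnuc, 5.63% in KDnuc, 7.08% in CTut, 5.36% in KDut and 5.63% in KDtr, overlap 85.6% and alpha satellite 15.7%. Length and triplets exceeded the rest by 0.38 log2 and 3.28 per kb, both at 0.0195, and the median fold was higher in KD than in CT by 0.0520. As a share of bases instead of peaks, the values were 2.503% for G4 DNA-IPdenat, 15.3% in CTnuc, 9.83% in KDnuc, 13.4% in CTut and 8.44% in KDtr. With the ribosomal DNA included they were 15.9% for G4 DNA-IPnat and 1.99% for G4-ChIP.

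With means instead of medians, length differed by 0.17 log2 and GC content by 1.39 points, both at an exact permutation p of 0.0391, and -log10 q by 0.712 at 0.0781. Against the rest on the same 5 chromosomes, length was lower by 0.22 log2 (-0.22) and triplets by 5.03 per kb (-5.03), neither past 0.05. Against alpha satellite elsewhere, fold was -0.0797 log2, -log10 q -0.934, length 0.77 log2 and triplets 5.48 per kb. A minimum overlap of 70% gave 70.8%, and an alpha-satellite limit of 70% gave 6.41%.

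In peaks per Mb, chromosome 13 exceeded 15 by 5.71 (exact permutation, adjusted p = 0.00558) and chromosome 21 differed from 22 by -2.39 (0.129). In the array blocks alone the differences in covered share were -0.0761 for 13 minus 14, -0.0643 for 13 minus 21, -0.0851 for 13 minus 22, 0.942 for 14 minus 15, 0.0118 for 14 minus 21, -0.00894 for 14 minus 22, -0.930 for 15 minus 21, -0.951 for 15 minus 22 and -0.0208 for 21 minus 22.

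Leaving out each list in turn gave length differences of 0.15 to 0.24 log2, GC differences of 0.712 to 1.41 points, triplet differences of 1.07 to 1.90 per kb and a difference of chromosome 13 minus 15 of 0.412 to 0.691 points. Leaving out each pair gave KD minus CT differences of -478 to 98.3 kb in covered bases and -0.347 to 0.0325 in median fold. Without the replicate block, the exact permutation p was 0.2 for the share, 0.7 for the covered bases and 0.9 for the median fold, against smallest possible values of 0.1 without and 0.25 with the block, so the pairing changed no call.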
